A study of Solanum tuberosum with 8 samples.

Results

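A potato tuber bud passes through a period after harvest in which its meristem, the small mass of dividing cells from which a sprout forms, does not grow out. The 69 genes described here were at a low but measured level in dormant tissue and below 1 FPKM in nondormant tissue, the word tissue standing throughout for the excised meristems. FPKM is a count of sequenced fragments scaled to transcript length and to the number of mapped fragments. They were chosen from a table of 35091 genes, of which 19664 were tested by the authors, as the tested genes with a value below 1 FPKM in nondormant tissue and from 3 to under 20 FPKM in dormant tissue. Genes starting on chromosome 1 from 1 to 2 Mb, on chromosome 3 from 16 to 21 Mb or on chromosome 4 from 6 to 7 Mb were left out, and 3 further genes met the rule there. Because the group values chose the genes, their levels and ratios are given as a description, with no test.

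The study compared meristems of the cultivar Russet Burbank from field-grown tubers. The 4 nondormant samples were excised from tubers kept at 4 °C until sprouts began to show, and the 4 dormant samples were excised about 2 weeks after harvest from tubers of the same harvests, in 4 different years. The sample labels carry the years 2005, 2007, 2009 and 2010 for dormant samples and 2006, 2008, 2010 and 2011 for nondormant samples. Time in storage and exposure to cold therefore differ between the groups together with dormancy and labelled year, and these cannot be told apart. The authors deposited 1 value per gene and group, so no sample values, replicate error or read depth can be given, and within a bulk sample fewer cells of a type and less RNA per cell cannot be told apart.

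As background, tuber dormancy is known to be maintained in part by abscisic acid, a hormone that also restrains seed germination, while cytokinins and gibberellins are known to promote the release and outgrowth of buds. On release, meristem cells resume division and the bud takes up sugars from starch broken down in the tuber. The deposited table gives identifiers and positions but no names for the 69 genes, so none of them is assigned to a hormone pathway or any other function, and the share of storage or skin tissue in the excised buds could not be examined through markers. Positions are those printed in the table, with no genome build named. Which parts of these loci are exon, intron or untranslated region is not known from the files.

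The 69 genes had a median of 0.724 FPKM in nondormant tissue (quartiles 0.503 and 0.862) and of 4.20 FPKM in dormant tissue (quartiles 3.34 and 5.43). Over all tested genes the medians were 11.3 FPKM in nondormant tissue and 11.4 FPKM in dormant tissue. The median of the 69 genes thus lay above 2.99% of tested genes in nondormant and above 28.6% of them in dormant tissue. Summed, the 69 genes made up 0.00543% of all FPKM in nondormant tissue and 0.0379% in dormant tissue. The median log2 ratio of nondormant over dormant was -2.67 in the 68 genes for which neither group was listed at 0, a 6.35-fold lower level in nondormant tissue (quartiles 4.80-fold and 8.80-fold). The median log2 ratio over all tested genes was -0.05.

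Many of these genes sat close to the limits of the rule. In nondormant tissue 32 of them lay from 0.75 to under 1 FPKM, 20 from 0.5 to under 0.75, 10 from 0.25 to under 0.5 and 7 below 0.25 FPKM. In dormant tissue 31 lay from 3 to under 4 FPKM, 17 from 4 to under 5, 14 from 5 to under 7 and 7 at 7 FPKM or more. No gene came near the upper limit of 20 FPKM, since the highest dormant value was 9.95 FPKM.

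**Figure D1:**
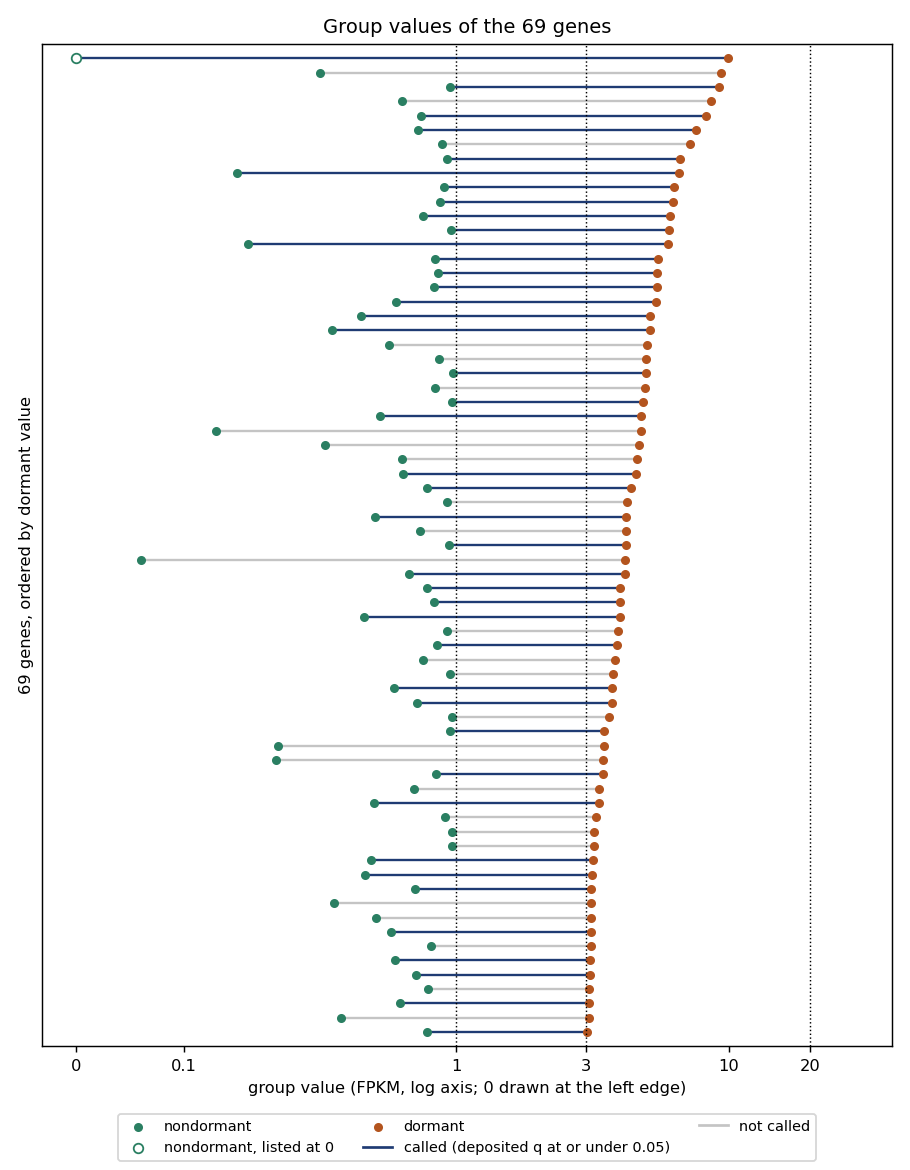
Group values (FPKM, log axis) of the 69 genes, 1 line per gene ordered by dormant value, with nondormant values as green points, dormant values as orange points and dark lines for the genes called by the authors. Dotted lines mark 1, 3 and 20 FPKM. Dormant values end at 9.95 FPKM, while 7 nondormant values lie below 0.25 FPKM, 1 of them listed at 0.

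At the nondormant threshold, the highest values inside were 0.972 FPKM on chromosome 2 at bases 35810267 to 35813179, with 4.97 FPKM in dormant tissue, and 0.968 FPKM on chromosome 1 at bases 3996878 to 3997214, with 3.19 FPKM in dormant tissue. The nearest genes outside were taken among those at 3 to under 20 FPKM in dormant tissue and at least 3-fold lower in nondormant tissue. They had just over 1 FPKM in nondormant tissue and 6.10 FPKM in dormant tissue (chromosome 9 at bases 8518536 to 8519476), and 1.01 FPKM in nondormant tissue and 4.49 FPKM in dormant tissue (chromosome 5 at bases 7746562 to 7747503). That choice makes the genes on either side of this limit alike in level, so nothing is read from their likeness.

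At the lower dormant threshold, a gene on chromosome 6 at bases 36774923 to 36776700 stood just inside with 0.782 FPKM in nondormant tissue and 3.03 FPKM in dormant tissue, as did a gene on chromosome 10 at bases 45424191 to 45424713 with 0.379 FPKM in nondormant tissue and 3.07 FPKM in dormant tissue. Just outside lay a gene on chromosome 5 at bases 41242106 to 41250631 with 0.683 FPKM in nondormant tissue and 2.99 FPKM in dormant tissue, and a gene on chromosome 12 at bases 58459875 to 58462540 with 0.948 FPKM in nondormant tissue and 2.96 FPKM in dormant tissue. Above 20 FPKM there were 2 tested genes below 1 FPKM in nondormant tissue. A gene on chromosome 3 at bases 43352737 to 43353841 had 0.864 FPKM in nondormant tissue and 20.3 FPKM in dormant tissue. The other, on chromosome 5 at bases 8560393 to 8566904, was listed at 0 in nondormant and had 20.5 FPKM in dormant tissue, and it shares its interval with another gene model, so that reads may have been split between them.

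The authors' deposited table called 42 of the 69 genes lower in nondormant tissue (60.9%), at a deposited q of 0.05 or less. Over all tested genes it called 3.75% lower in nondormant tissue, and 2.72% of the tested genes at 3 to 20 FPKM in dormant tissue outside the left-out stretches. The genes were chosen on the same contrast, so nothing is read from the higher share. Of the 1182 tested genes below 1 FPKM in nondormant tissue, left-out stretches included, 1108 had under 3 FPKM in dormant tissue. The authors' deposited table called 90 of the 1182 lower in nondormant tissue, and the 42 genes are 46.7% of these 90. Among the 27 genes without a call, 15 had a deposited p under 0.05 in the authors' deposited table before adjustment. A large difference did not go with a call in every case. Among the 68 genes above 0 in both groups, 23 were at least 8-fold lower in nondormant tissue and the authors' deposited table called 12 of them, and of the 5 that were at least 16-fold lower it called 2. The called genes above 0 were 3.68-fold to 42.0-fold lower in nondormant tissue, and the uncalled genes 3.30-fold to 59.5-fold lower, so their ranges overlapped.

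The gene with the highest dormant value, on chromosome 6 at bases 52528895 to 52532425, was listed at 0 in nondormant tissue and at 9.95 FPKM in dormant tissue. It was the 1 gene of the 69 listed at 0, and no fold is given for it, as a ratio to 0 is undefined. Whether the 0 is an estimate that failed cannot be told, though the gene had the status OK. The authors' deposited table called it lower in nondormant tissue (q = 0.00179), at the smallest q it gives.

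Next in dormant level was a gene on chromosome 4 at bases 50266674 to 50267472, with 0.316 FPKM in nondormant tissue and 9.36 FPKM in dormant tissue. It was 29.6-fold lower in nondormant tissue but was not called in the authors' deposited table (q = 0.306). On chromosome 10 at bases 1065092 to 1067816, a gene with a similar dormant level had 0.947 FPKM in nondormant tissue and 9.21 FPKM in dormant tissue, a 9.72-fold difference that the authors' deposited table called (q = 0.00179). The larger difference was thus the one without a call, and its locus spans 0.799 kb against 2.73 kb for the called one.

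The genes ranking below these in dormant level were a mixture of called and uncalled loci. On chromosome 9 at bases 43423922 to 43424637 the values were 0.634 FPKM in nondormant tissue and 8.59 FPKM in dormant tissue (13.5-fold lower in nondormant; q = 0.0574, authors' deposited table). This was the uncalled gene of the 69 closest to the threshold. A gene on chromosome 12 at bases 34549306 to 34552241 had 0.740 FPKM in nondormant tissue and 8.29 FPKM in dormant tissue, 11.2-fold lower in nondormant and called in the authors' deposited table (q = 0.00594). On chromosome 6 at bases 29503378 to 29503967 the values were 0.724 FPKM in nondormant tissue and 7.61 FPKM in dormant tissue, 10.5-fold lower in nondormant (q = 0.0439, authors' deposited table). At 0.590 kb this was among the 7 called genes that span less than 1 kb. A locus on chromosome 3 at bases 7512700 to 7514828 stood at 0.888 FPKM in nondormant tissue and 7.20 FPKM in dormant tissue, and the authors' deposited table did not call its 8.11-fold difference (q = 0.213).

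The other genes of the 10 highest in dormant tissue were called. The locus on chromosome 8 at bases 20023538 to 20027635 had 0.927 FPKM in nondormant tissue and 6.63 FPKM in dormant tissue (7.15-fold lower in nondormant; q = 0.00179, authors' deposited table). On chromosome 2 at bases 46046960 to 46048057 the values were 0.904 FPKM in nondormant tissue and 6.33 FPKM in dormant tissue (7.01-fold lower in nondormant; q = 0.0112, authors' deposited table).

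The largest called difference among genes above 0 in both groups belonged to PGSC0003DMG400024476, on chromosome 3 at bases 39570015 to 39571014, with 0.157 FPKM in nondormant tissue and 6.59 FPKM in dormant tissue. It was 42.0-fold lower in nondormant tissue (log2 ratio -5.39; q = 0.0439, authors' deposited table), and its call is lost at a q of 0.01. PGSC0003DMG400028022, on chromosome 10 at bases 9536983 to 9541687, followed with 0.172 FPKM in nondormant tissue and 6.02 FPKM in dormant tissue. Its level was 35.1-fold lower in nondormant tissue (log2 ratio -5.13; q = 0.00306, authors' deposited table), a call that holds at a q of 0.01. Both ratios rest on nondormant values below 0.25 FPKM, and with 1 FPKM added to both values the log2 ratios are -2.71 and -2.58.

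The other called genes with large differences were between 8.70-fold and 14.7-fold lower in nondormant tissue. A gene on chromosome 1 at bases 5946554 to 5948018 had 0.349 FPKM in nondormant tissue and 5.13 FPKM in dormant tissue (14.7-fold; q = 0.00671, authors' deposited table). On chromosome 6 at bases 10425413 to 10427626 a gene had 0.449 FPKM in nondormant tissue and 5.15 FPKM in dormant tissue (11.5-fold; q = 0.00179, authors' deposited table). These 2 genes had like dormant levels and differed in the nondormant value.

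Close to 9-fold lower in nondormant tissue were a gene on chromosome 9 at bases 5378219 to 5379171, with 0.526 FPKM in nondormant tissue and 4.78 FPKM in dormant tissue (9.08-fold; q = 0.0124, authors' deposited table), and a gene on chromosome 2 at bases 32502105 to 32504214, with 0.602 FPKM in nondormant tissue and 5.43 FPKM in dormant tissue (9.01-fold; q = 0.00747, authors' deposited table). A locus on chromosome 7 at bases 50149354 to 50150780 had 0.458 FPKM in nondormant tissue and 3.99 FPKM in dormant tissue (8.70-fold; q = 0.00903, authors' deposited table). Together with the loci above, these complete the 10 largest called differences.

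The largest fold among the genes above 0 in both groups was not called. On chromosome 12 at bases 52166413 to 52167389 the values were 0.0698 FPKM in nondormant tissue and 4.15 FPKM in dormant tissue, 59.5-fold lower in nondormant (q = 0.240, authors' deposited table). Another uncalled gene, on chromosome 8 at bases 42168497 to 42168953, had 0.131 FPKM in nondormant tissue and 4.75 FPKM in dormant tissue (36.3-fold; q = 0.408, authors' deposited table). Both loci span less than 1 kb.

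Some loci carry more than 1 gene model. Of the 69 genes 2 share their printed interval with other models, both on chromosome 4, and neither was called in the authors' deposited table. For the first, at bases 60877341 to 60882341, the values were 0.947 FPKM in nondormant tissue and 3.76 FPKM in dormant tissue, and the authors' deposited table gave it the highest q of the 69 genes (q = 0.873). The model on the same interval had 14.7 FPKM in nondormant tissue and 20.4 FPKM in dormant tissue. The second, at bases 64171820 to 64177376, had 0.701 FPKM in nondormant tissue and 3.34 FPKM in dormant tissue, beside a model with 1.21 FPKM in nondormant tissue and 0.613 FPKM in dormant tissue. A further model on that interval had 4.97 FPKM in nondormant tissue and 5.05 FPKM in dormant tissue. Reads may be split between such models, so the levels of these 2 genes are uncertain.

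A set with the limits turned round, called here the mirror set, held the genes from 3 to under 20 FPKM in nondormant tissue and below 1 FPKM in dormant tissue. It had 244 genes outside the same left-out windows, against 69 in the set described. The 69 genes were 0.844% of the 8171 tested genes at 3 to 20 FPKM in dormant tissue outside those windows, and the mirror set was 2.90% of the 8414 at 3 to 20 FPKM in nondormant tissue. Within the 69 genes 1 was listed at 0 in the group where it was low, against 10 in the mirror set. The median difference was 6.35-fold lower in nondormant tissue in the 69 genes and 9.39-fold higher there in the mirror set. The values of both groups chose both sets, and no test was made of these counts and folds.

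**Figure D2:**
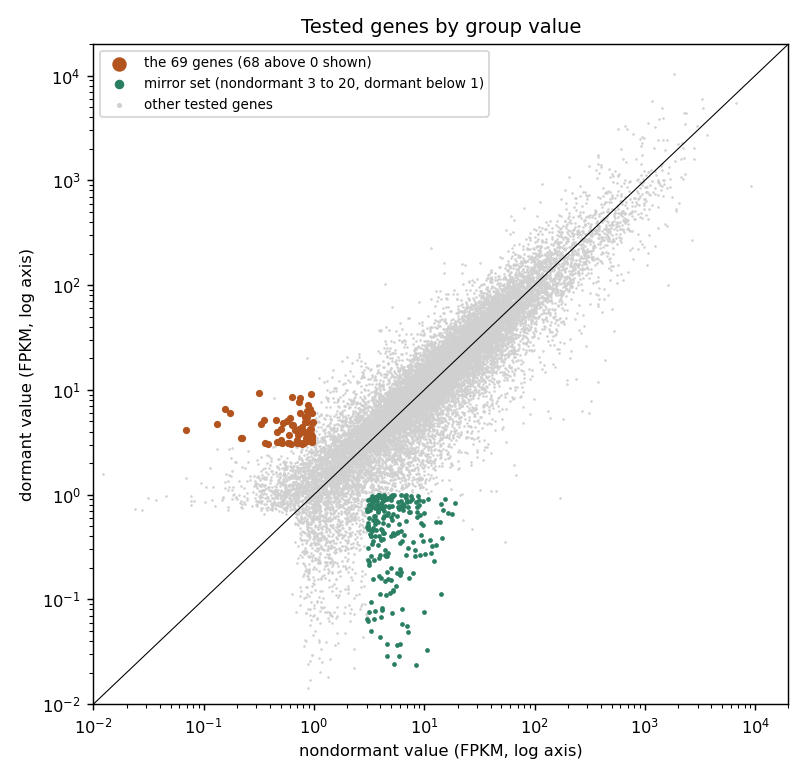
Nondormant value (horizontal) against dormant value (vertical) in FPKM on log axes for tested genes above 0 in both groups, with the 68 such genes of the described set in orange and the mirror set in green. The line marks equal values. The mirror set is larger (244 genes in all) and reaches further from the line, with a median fold of 9.39 against 6.35.

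The rule did not use the length of a locus. The 69 genes spanned a median of 1778 bases from the printed start to the printed end, any introns included (quartiles 852 and 2913). The 8102 other tested genes at 3 to 20 FPKM in dormant tissue spanned a median of 3804 bases, all tested genes 3527 bases and the mirror set 1857 bases. Spans under 1 kb were found in 23 of the 69 genes (33.3%), in 10.3% of the other genes of like dormant level, in 11.2% of all tested genes and in 23.8% of the mirror set. The shortest locus of the 69 spanned 316 bases and the longest 9844.

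Span also went with the call. Of the 23 genes under 1 kb, 7 were called in the authors' deposited table (30.4%), as were 13 of the 17 from 1 to under 2 kb (76.5%) and 22 of the 29 from 2 kb up (75.9%). The called genes had a median span of 2129 bases and the 27 uncalled genes one of 799 bases. In the mirror set the authors' deposited table called 39.7% of the genes under 1 kb, 69.3% of those from 1 to under 2 kb and 82.9% of those from 2 kb up. Among the other tested genes at 3 to 20 FPKM in dormant tissue these shares were 11.2%, 12.6% and 7.31%, calls in either direction. At the same FPKM a short transcript yields fewer fragments than a long one. The number of fragments behind each value is unknown here, so the part of this in the selection and in the calls was not tested.

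**Figure D3:**
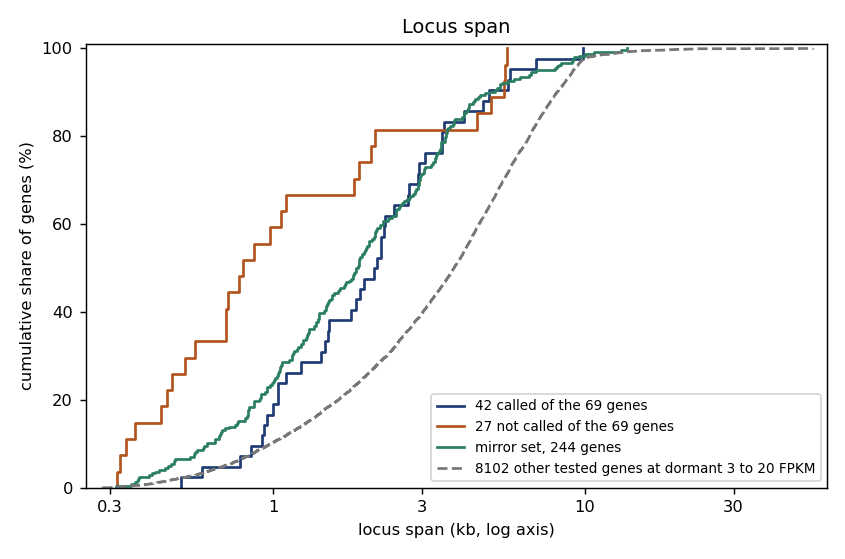
Cumulative share of genes (%) by locus span (kb, log axis) for the called and the uncalled genes of the 69, the mirror set and the other tested genes at 3 to 20 FPKM in dormant tissue. The uncalled genes lie furthest to the left (median 799 bases), and the other genes of like dormant level lie furthest to the right at the median (3804 bases).

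The 69 genes lay on 11 of the 12 chromosomes. Chromosome 8 held the most, 10 of its 1356 tested genes (0.737%), followed by chromosomes 10 and 12 with 8 each (0.608% and 0.556% of their tested genes). Chromosome 11 held 0 among 1323 tested genes, and chromosome 7 held 2 among 1442. The authors' deposited table called 60.9% of the 69 genes lower in nondormant tissue, beside 3.75% of all tested genes. It called all 7 genes on chromosome 2, all 4 on chromosome 6 and both on chromosome 7. On chromosomes 1, 3, 8 and 12 it called 4 of 6, 3 of 5, 6 of 10 and 5 of 8. On chromosomes 4, 5, 9 and 10 it called 2 of 5, 3 of 7, 3 of 7 and 3 of 8. These are counts of few genes and no test was made of them.

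The tested genes next to the 69 were also examined, because their values were not used by the rule. Of the 136 nearest tested genes on either side that were not themselves in the set, the authors' deposited table called 19 lower in nondormant tissue (14.0%) and 9 higher there (6.62%). Over the neighbours of all tested genes these shares were 3.76% lower and 7.17% higher. Around the other genes called lower in nondormant tissue, 8.01% of the nearest tested genes were called lower. Around the mirror set 3.86% were called lower and 7.51% higher, the direction of that set, beside 7.17% higher over all tested genes. That called genes of like direction lie together in this table was known before these neighbours were counted, so the count is no independent evidence of it.

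Genes further away in gene order were counted in the same way, with no test of the difference between distances. The same gene can be counted at several distances. The gene on chromosome 12 at bases 52169461 to 52170332, called lower, was nearest to a member and second-nearest to another. Among the second-nearest tested genes the authors' deposited table called 9 of 138 lower in nondormant tissue (6.52%) and 9 higher there (6.52%). Among the third-nearest it called 9 of 136 lower (6.62%) and 14 higher (10.3%). Over the neighbours of all tested genes 3.75% were called lower and 7.18% higher at either distance. Around the other genes called lower in nondormant tissue, 6.52% of the second-nearest and 5.80% of the third-nearest were called lower. The median log2 ratio of nondormant over dormant was -0.17 in the nearest genes, -0.10 in the second-nearest and 0.07 in the third-nearest, beside -0.05 over all tested genes. The quartiles of the nearest genes were -0.93 and 0.33, beside -0.51 and 0.51 for the nearest genes of all tested genes. Both quartiles thus lay lower than over all tested genes, though most of the nearest genes were called in neither direction. Of the nearest genes within 10 kb of the member, 13 of 72 were called lower in nondormant tissue in the authors' deposited table (18.1%), and of those further away 6 of 64 (9.38%). For neighbours of all tested genes the shares were 3.67% within 10 kb and 3.88% beyond it. At a deposited q of 0.01 or less the share over the nearest genes is 5.15%, beside 1.56% of all tested genes.

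**Figure D4:**
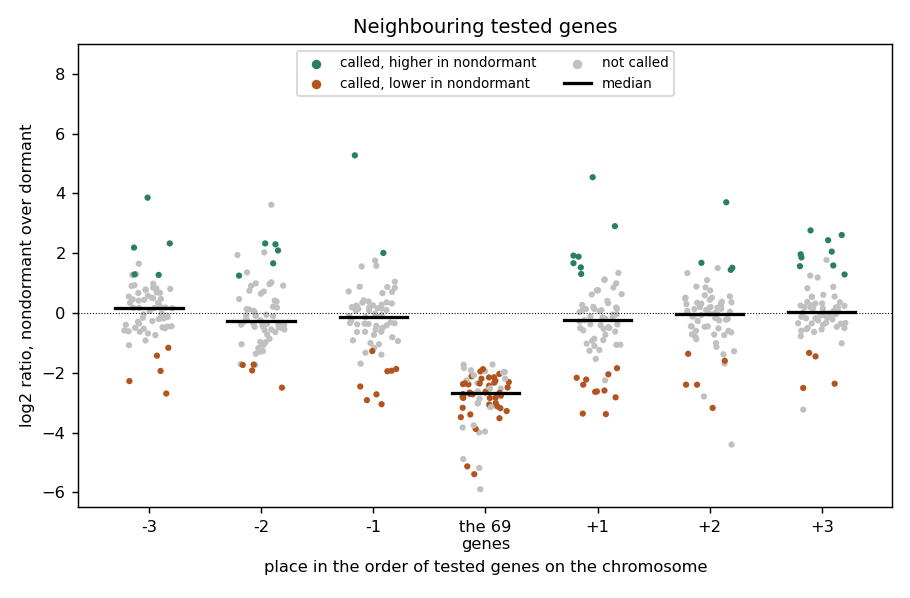
Log2 ratio of nondormant over dormant for the 69 genes (centre, 68 with a ratio) and for the tested genes up to 3 places away on each side, with genes called lower in nondormant in orange, called higher in green, uncalled in grey and medians as black bars. Among the neighbouring places, orange points are most frequent 1 place away, where 19 of 136 genes were called lower, and the medians of the neighbours lie near 0.

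The 19 called neighbours covered a wide range of levels, from 0.924 to 186 FPKM in dormant tissue. Their median was 2.12 FPKM in nondormant tissue and 15.0 FPKM in dormant tissue, and they were 2.42-fold to 10.4-fold lower in nondormant tissue. In 5 of them the nondormant value was below 1 FPKM. Each lay beside a different one of the 69 genes. Of the 53 neighbours of uncalled members 10 were called lower in nondormant tissue in the authors' deposited table (18.9%), and of the 83 neighbours of called members 9 were (10.8%), a difference that was not tested. The loci in the next paragraphs were singled out after their values were seen.

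The closest such neighbour began 0.603 kb after the gene on chromosome 1 at bases 56815339 to 56816568, which had 0.499 FPKM in nondormant tissue and 3.33 FPKM in dormant tissue. The neighbour, at bases 56817171 to 56817546, had 4.51 FPKM in nondormant tissue and 27.2 FPKM in dormant tissue (6.03-fold lower in nondormant; q = 0.0256, authors' deposited table). Both loci were called. Whether loci this close belong to the same transcript was not tested.

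On chromosome 2, the gene at bases 20112038 to 20112889 had 0.639 FPKM in nondormant tissue and 4.58 FPKM in dormant tissue and was called in the authors' deposited table. Its neighbour 1.09 kb away, at bases 20113979 to 20115721, had 7.54 FPKM in nondormant tissue and 33.9 FPKM in dormant tissue (4.49-fold lower in nondormant; q = 0.00179, authors' deposited table). The pair differed in level and moved the same way.

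Chromosome 8 held 4 such neighbours. Beside the uncalled gene at bases 42168497 to 42168953, described above, the gene at bases 42172263 to 42172963 had 1.49 FPKM in nondormant tissue and 15.6 FPKM in dormant tissue (10.4-fold lower in nondormant; q = 0.00179, authors' deposited table). Beside the gene at bases 29094464 to 29096300, with 0.619 FPKM in nondormant tissue and 3.07 FPKM in dormant tissue, the gene at bases 29098682 to 29099815 had 0.250 FPKM in nondormant tissue and 2.58 FPKM in dormant tissue (10.3-fold lower in nondormant; q = 0.0105, authors' deposited table). That neighbour misses the described set by its dormant level alone.

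On chromosome 9 the 3 nearest tested genes on the left of 1 member were called. The uncalled gene at bases 40497321 to 40498095 had 0.906 FPKM in nondormant tissue and 3.25 FPKM in dormant tissue. Its nearest tested gene, at bases 40490796 to 40492712, had 5.55 FPKM in nondormant tissue and 36.6 FPKM in dormant tissue, and the next, at bases 40488009 to 40489373, had 5.91 FPKM in nondormant tissue and 33.4 FPKM in dormant tissue. Both were called lower in nondormant tissue in the authors' deposited table (6.59-fold and 5.64-fold, q = 0.00179 each). The third, at bases 40485343 to 40486658, had 1.59 FPKM in nondormant tissue and 10.3 FPKM in dormant tissue (6.47-fold lower in nondormant; q = 0.00671, authors' deposited table). On the right, the nearest tested gene, at bases 40546024 to 40550608, had 1.04 FPKM in nondormant tissue and 0.615 FPKM in dormant tissue. Neither it nor the second-nearest and third-nearest on that side were called.

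The most abundant called neighbour lay on chromosome 12 at bases 57064513 to 57067612, with 48.3 FPKM in nondormant tissue and 186 FPKM in dormant tissue (3.86-fold lower in nondormant; q = 0.00179, authors' deposited table). The gene beside it, at bases 57072202 to 57073702, had 0.672 FPKM in nondormant tissue and 4.15 FPKM in dormant tissue and was called as well. On its other side, the gene at bases 57075893 to 57078454 had 299 FPKM in nondormant tissue and 150.3 FPKM in dormant tissue and was not called in the authors' deposited table. Neighbours on opposite sides of this gene thus had opposite differences.

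A further stretch of chromosome 8 held 2 of the 69 genes 83.3 kb apart, with a called neighbour outside each. From left to right, the gene at bases 37599277 to 37599728 had 1.32 FPKM in nondormant tissue and 9.94 FPKM in dormant tissue (q = 0.0450, authors' deposited table). The 2 genes of the set followed, with 0.632 FPKM in nondormant tissue and 4.62 FPKM in dormant tissue at bases 37618048 to 37622565, and with 0.734 FPKM in nondormant tissue and 4.21 FPKM in dormant tissue at bases 37705819 to 37706524. Last came the gene at bases 37707658 to 37710994 with 2.90 FPKM in nondormant tissue and 18.1 FPKM in dormant tissue (q = 0.0356, authors' deposited table). Both genes of the set fell short of a call in the authors' deposited table, while the genes flanking them were called. The 2 tested genes between them were not called.

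Next to each other in the order of tested genes were 2 of the 69, on chromosome 12 with 25.8 kb between them. The gene at bases 52139583 to 52140620 had 0.463 FPKM in nondormant tissue and 3.14 FPKM in dormant tissue, 6.79-fold lower in nondormant and called in the authors' deposited table (q = 0.0362). The other is the gene with the largest fold among those above 0 in both groups, at bases 52166413 to 52167389. Between them lay 2 untested genes, 1 with 0.103 FPKM in nondormant tissue and 0.688 FPKM in dormant tissue and 1 listed at 0 in both groups. The tested gene after the pair, at bases 52169461 to 52170332, had 1.29 FPKM in nondormant tissue and 6.81 FPKM in dormant tissue (5.27-fold lower in nondormant; q = 0.0205, authors' deposited table). Beyond it, the gene at bases 52177816 to 52181939 had 12.9 FPKM in nondormant tissue and 11.2 FPKM in dormant tissue and was not called. To the left of the pair, the nearest tested gene was not called and the one before it, at bases 52116625 to 52121953, had 1.37 FPKM in nondormant tissue and 0.273 FPKM in dormant tissue (5.02-fold higher in nondormant; q = 0.0422, authors' deposited table).

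Other surroundings differed in direction from the gene. On chromosome 10 the gene at bases 46596429 to 46596903 had 0.222 FPKM in nondormant tissue and 3.48 FPKM in dormant tissue and was not called in the authors' deposited table (15.6-fold lower in nondormant; q = 0.232). The gene after it, at bases 46598021 to 46604906, had 27.1 FPKM in nondormant tissue and 32.0 FPKM in dormant tissue. The gene after that, at bases 46614488 to 46616591, had 35.0 FPKM in nondormant tissue and 2.68 FPKM in dormant tissue, 13.0-fold higher in nondormant tissue, and it opens a group of 5 genes called higher there in the authors' deposited table. Genes with opposite differences thus lay within 20 kb of each other on this chromosome.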

How the data were processed

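Meristem RNA from 8 samples, 4 nondormant and 4 dormant, was sequenced. The deposited table holds group values taken to be FPKM from the authors, because it is laid out like Cuffdiff output, with the same words for status; per the file headers no unit is printed. For aligner, program version, genome build, annotation and the way samples were combined, nothing is given in the sources used here. The deposited p-value and q-value are the authors' own; the q-values equal a Benjamini-Hochberg adjustment over the 19664 tested genes within 5.2e-07.

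Genes were selected by group value from tested genes (status OK), and ratios were computed with no pseudocount. The members, gene lists and rules were chosen with earlier results of these data known. No gene lists or tissue markers could be applied, because 0 identifiers matched the reference table of assembly SolTub_3.0. Genes named are the 10 highest in dormant meristems, the 10 with the largest called differences, those listed at 0, those next to another member and those at each threshold; others were chosen after their values were seen. Scripts were tested on simulated data. Tables were handled with pandas 2.3.3 and numpy 2.4.6 under Python 3.11.15, self-tests used scipy 1.17.1, and plots were drawn with matplotlib 3.10.9.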

Additional observations from a re-analysis of the deposited data

How the results depend on the processing

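At a deposited q of 0.01 or less 21 of the 69 genes are called in place of 42; a Bonferroni adjustment of the authors' p-values calls 0, which its construction fixes, since the smallest deposited p gives 0.983 (57 of the 69 genes have an unadjusted p under 0.05). The number of genes depends on the limits: 17 with nondormant values below 0.5 FPKM, 316 below 2 FPKM, 153 with dormant values of at least 2 FPKM and 21 of at least 5 FPKM. The median log2 ratio is -2.52 with 0.1 FPKM added to both values and -1.61 with 1 FPKM, as a pseudocount must shrink ratios of low values. Among all genes of the table, tested or not, 0 members are next to each other in place of 2, because untested genes lie between. The share of nearest tested genes called lower in nondormant meristems is 5.15% at a q of 0.01, an alternative chosen after seeing the data. The other alternatives to these counts and medians stayed within 1.5 times the values given, or within 0.1 for the median log2 ratio: a q of 0.10, recomputed and filtered adjustments, shared intervals left out, called genes alone, no upper limit, the left-out windows taken in, and scaling or centring on the median. Of the 18 genes named by rule for level, ratio, a value of 0 or adjacency, 5 lose their call at a q of 0.01 and 1 gains it at 0.10. Leaving out a sample could not be tried, and depth limits cannot be stated, because the table holds no sample values. No paired analysis was possible because the deposited columns carry no sample or harvest.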

Other observations

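A further 3 genes met the limits on both values but have the status NOTEST in the authors' deposited table, so they carry no test and were not counted. On chromosome 5 at bases 4959359 to 4963566 the values were 0.576 FPKM in nondormant tissue and 4.88 FPKM in dormant tissue. On chromosome 8 at bases 7708377 to 7709760 they were 0.966 FPKM in nondormant tissue and 4.98 FPKM in dormant tissue, and on chromosome 2 at bases 45129418 to 45134630 they were 0.513 FPKM in nondormant tissue and 3.33 FPKM in dormant tissue. These values are within the range of the 69 tested genes.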
